A study of Mus musculus with 12 samples.

Results

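The genes described here are 38 genes of the cell cycle and of DNA replication, named as a list and read across all samples. By role they are 8 cyclins, kinases and inhibitors of G1, 5 genes of the step from G1 to S phase, 8 genes that license replication origins, 4 genes of DNA synthesis, 4 genes made of Cdk1 and the cyclins of S and M phase, and 9 genes of mitosis. Where a gene had several probe sets, the brightest by its mean over all 12 arrays stood for it. Of the 38 genes 37 were measured, among 18193 genes in all. Ccnb1 was not analysed here, because no probe set carried that symbol in the annotation used.

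RNA of mouse yolk sacs from 2 embryonic stages, E9.0 and E10.5, was hybridised to whole-genome Affymetrix arrays, which read each transcript with 1 or more probe sets. The groups were Hypb+/+ (wild type) and Hypb-/- (knockout) at each stage, of the strain given as 129Sv/C57BL/6, with 3 arrays per group and 12 in all. Each array held RNA from a pool of 4 yolk sacs of 1 genotype and 5 micrograms of total RNA, and the submitters' design calls the 3 arrays of a group biological repeats. The labels give neither the part of Hypb that was deleted nor the sex or number of litters, and the submitters chose E9.0 as a stage before severe visible defects and E10.5 as one shortly before death. Hypb is now named Setd2, a histone methyltransferase that marks lysine 36 of histone H3 along transcribed genes.

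As background, D-type cyclins with Cdk4 or Cdk6 phosphorylate the retinoblastoma protein in G1, which frees E2F factors to switch on genes of S phase. The Mcm2 to Mcm7 helicase is loaded on origins by Cdc6 and Cdt1, and cyclin A2, cyclin B and Cdk1 then carry cells through S phase into mitosis, where Plk1, the Aurora kinases and the Bub1 checkpoint act before Cdc20 triggers anaphase. The yolk sac grows quickly at these stages through its visceral endoderm, mesoderm, vessels and primitive blood.

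The promoters of 7 members that changed between stages in both genotypes are shown, so that the sequence elements of replication and mitosis genes can be set beside their values. They are RefSeq windows of GRCm38.p6, from 250 bases before to 50 bases after the annotated start, written 5′ to 3′ on the gene's strand. Capitals mark every match, on either strand, to the E2F motif (TTTCCCGC, TTTGGCGC, TTTCGCGC or TTTGCCGC), the CHR element (TTTGAA) and the CCAAT box (CCAAT). In Mcm5 and Mcm6 matches on both strands overlap in 1 run of capitals.
Mcm3 (chr1:20820263-20820562, minus strand): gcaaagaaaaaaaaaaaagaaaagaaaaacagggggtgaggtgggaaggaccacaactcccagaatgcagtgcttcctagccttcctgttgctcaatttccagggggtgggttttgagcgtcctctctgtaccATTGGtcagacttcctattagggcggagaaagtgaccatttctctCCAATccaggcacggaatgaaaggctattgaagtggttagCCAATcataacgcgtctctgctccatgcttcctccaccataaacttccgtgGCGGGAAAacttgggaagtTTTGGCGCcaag
Mcm5 (chr8:75109259-75109558, plus strand): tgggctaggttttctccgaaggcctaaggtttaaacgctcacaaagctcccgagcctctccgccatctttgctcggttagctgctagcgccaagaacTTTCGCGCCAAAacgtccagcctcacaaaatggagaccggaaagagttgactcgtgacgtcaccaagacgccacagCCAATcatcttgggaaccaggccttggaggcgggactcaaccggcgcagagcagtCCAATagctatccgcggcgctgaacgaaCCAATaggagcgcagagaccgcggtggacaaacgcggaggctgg
Mcm6 (chr1:128359656-128359955, minus strand): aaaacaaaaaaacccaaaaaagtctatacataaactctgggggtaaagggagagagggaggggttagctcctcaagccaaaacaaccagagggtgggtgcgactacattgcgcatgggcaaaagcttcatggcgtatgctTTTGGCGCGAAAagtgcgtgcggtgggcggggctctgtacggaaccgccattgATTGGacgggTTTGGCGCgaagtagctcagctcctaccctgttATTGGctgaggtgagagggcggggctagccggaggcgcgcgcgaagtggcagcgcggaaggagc
Plk1 (chr7:122159185-122159484, plus strand): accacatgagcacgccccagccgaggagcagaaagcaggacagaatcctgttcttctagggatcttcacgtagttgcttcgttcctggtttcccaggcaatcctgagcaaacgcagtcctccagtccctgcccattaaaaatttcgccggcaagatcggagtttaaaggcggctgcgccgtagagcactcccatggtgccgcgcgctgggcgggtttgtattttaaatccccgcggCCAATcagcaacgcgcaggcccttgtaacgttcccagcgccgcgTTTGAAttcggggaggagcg
Cdc20 (chr4:118437294-118437593, minus strand): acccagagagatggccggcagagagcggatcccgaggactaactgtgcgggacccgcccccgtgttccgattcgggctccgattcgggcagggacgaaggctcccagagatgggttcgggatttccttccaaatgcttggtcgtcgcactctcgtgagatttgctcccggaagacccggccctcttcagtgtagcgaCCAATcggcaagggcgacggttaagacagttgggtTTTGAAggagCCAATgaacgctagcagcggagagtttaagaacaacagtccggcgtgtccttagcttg
Cdk1 (chr10:69352863-69353162, minus strand): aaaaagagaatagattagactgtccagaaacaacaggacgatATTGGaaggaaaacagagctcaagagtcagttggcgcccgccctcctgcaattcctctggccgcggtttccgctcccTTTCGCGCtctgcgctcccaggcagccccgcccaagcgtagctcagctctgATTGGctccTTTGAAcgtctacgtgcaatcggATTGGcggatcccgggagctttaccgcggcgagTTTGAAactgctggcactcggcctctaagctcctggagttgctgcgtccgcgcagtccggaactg
Bub1 (chr2:127831810-127832109, minus strand): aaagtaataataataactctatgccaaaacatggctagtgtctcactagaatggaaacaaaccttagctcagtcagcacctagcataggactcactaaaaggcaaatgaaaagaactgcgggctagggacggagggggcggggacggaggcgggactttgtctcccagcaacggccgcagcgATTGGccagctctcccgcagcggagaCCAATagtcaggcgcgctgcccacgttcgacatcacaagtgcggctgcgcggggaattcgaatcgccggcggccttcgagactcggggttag
The replication genes Mcm3, Mcm5 and Mcm6 held E2F matches and no CHR match in these windows, whereas Plk1 and Cdc20 held CHR matches and no E2F match. Cdk1 held both, and Bub1 held neither of them and 2 CCAAT boxes. Rrm2 and E2f3 also changed between stages in both genotypes and have windows that are not printed. The window of Rrm2 held neither an E2F nor a CHR match. Of the 2 windows of E2f3, 1 held an E2F match and 1 a CHR match. Windows were found for 31 of the 38 members, 35 windows in all. An E2F match lay in 9 of the 35 (25.7%), against 2.26% of all 32851 windows of this length. Those 9 were 6 of the 8 windows of licensing genes, 2 of the 5 of genes of the G1 to S step and that of Cdk1, with 0 of 8 among the mitosis genes. A CHR match lay in 6 of the 8 windows of mitosis genes and 1 of the 8 of licensing genes, against 17.9% of all windows. A CCAAT box lay in 24 of the 35 windows (68.6%) against 37.4% of all windows. These matches describe the letters of the windows and are not measured binding. The members Ccnd1, Ccnd2, Rb1, Ccne2, Mcm4, Ccna2 and Aurkb are named only.

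All values are deposited log2 values made with RMA, so a difference of 1 is a doubling in signal, and levels are compared only within 1 probe set. At each stage the targeted gene Setd2 had its 3 lowest values on the knockout arrays. Its values were 9.08, 9.03 and 8.83 in the wild type and 7.54, 7.99 and 7.53 in the knockout at E9.0, and 8.77, 8.70 and 8.66 against 7.77, 7.81 and 8.07 at E10.5. The fitted changes were -1.29 (SE 0.13, limma adjusted p = 0.00207) and -0.83 (SE 0.13, adjusted p = 0.00294). The labelled tissue was borne out by Afp (13.71 to 14.23), Ttr (14.06 to 14.21) and the embryonic globin Hbb-bh1 (14.09 to 14.49), all near the highest value of any probe set (14.49) on all 12 arrays. RMA values carry no depth. Precision rests on 3 arrays per group, and the median SE of a change between 2 groups was 0.126 over all genes. Spiked controls set replicate 3 apart in both genotypes at each stage. At E9.0 the bioC minus bioB difference was 0.14 and 0.055 on those arrays and 1.55 to 1.66 on the other 4, and at E10.5 the dap 3′ minus 5′ difference was 1.74 and 1.76 against 1.05 to 1.31. Values within replicates 1 and 2 and within replicate 3 are therefore given beside the E10.5 knockout results of Ccnd1, Ccnd2, Rb1, Cdk6 and Rrm2.

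At E9.0, the stage without severe visible defects, none of the 37 members changed with the knockout past the threshold, an adjusted p under 0.05 (limma, Benjamini-Hochberg over all 18193 genes). The fitted differences were small, from -0.30 to 0.42, with a median of 0.09 against -0.0067 over all genes. In the same comparison 1.18% of all genes passed (215 genes, 0.55% higher and 0.632% lower). At an unadjusted p under 0.05 stood 4 members (10.8%), Rrm2, Rb1, Ccna2 and Cdk4, against 11.8% of all genes. The difference was positive for 31 members and negative for 6. The 3 knockout arrays lay wholly on 1 side of the 3 wild type arrays for 5 members, against 18% of all genes.

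Rrm2, the regulatory subunit of ribonucleotide reductase, which makes the building blocks of DNA, had the smallest p of the list at E9.0. Its values were 11.81, 11.85 and 11.83 in the wild type and 12.13, 12.12 and 12.11 in the knockout. The knockout arrays were all higher and the groups did not overlap, a difference of 0.29 (SE 0.09, adjusted p = 0.167). Among the G1 genes the retinoblastoma gene Rb1 came first, at 6.26, 6.28 and 6.74 against 6.78, 6.77 and 7.0. The lowest knockout array stood just above the highest wild type array, and the difference was 0.42 (SE 0.15, adjusted p = 0.235). Cdk4, the partner kinase of the D-type cyclins, had the lowest difference of the list, -0.30 (SE 0.12, adjusted p = 0.310), with overlapping groups. Cyclin A2 (Ccna2) read 11.27, 11.34 and 11.15 in the wild type and 11.43, 11.53 and 11.48 in the knockout, without overlap and with a difference of 0.23 (SE 0.09, adjusted p = 0.301). Its second probe set, of similar level, did not repeat this rise. That probe set read 11.29, 11.25 and 11.04 in the wild type and 11.02, 11.14 and 10.94 in the knockout. In the other roles the smallest p belonged to Mcm5 (0.16, adjusted p = 0.623), Cdk2 (0.14, adjusted p = 0.780) and Mki67 (0.10, adjusted p = 0.763). The remaining members had adjusted p values of at least 0.524.

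How large a change the E9.0 arrays could have missed can be read from the intervals. The 95% interval lay within 0.5 of 0 for 31 of 37 members (83.8%), against 71.3% of all genes. It did so for all 9 mitosis genes, all 6 helicase subunits Mcm2 to Mcm7, all 4 DNA synthesis genes and all 5 genes of the G1 to S step. Among the 9 mitosis genes the intervals ran from -0.40 at the lowest to 0.35 at the highest. Mki67, the antigen used to mark dividing cells, lay between -0.09 and 0.29. The wide intervals belonged to Ccnd2, Ccnd3, Cdk4, Cdk6, Rb1 and Cdt1. A p above the threshold does not show that the genotypes were alike, and these intervals give the range of differences left for each gene.

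**Figure D1:**
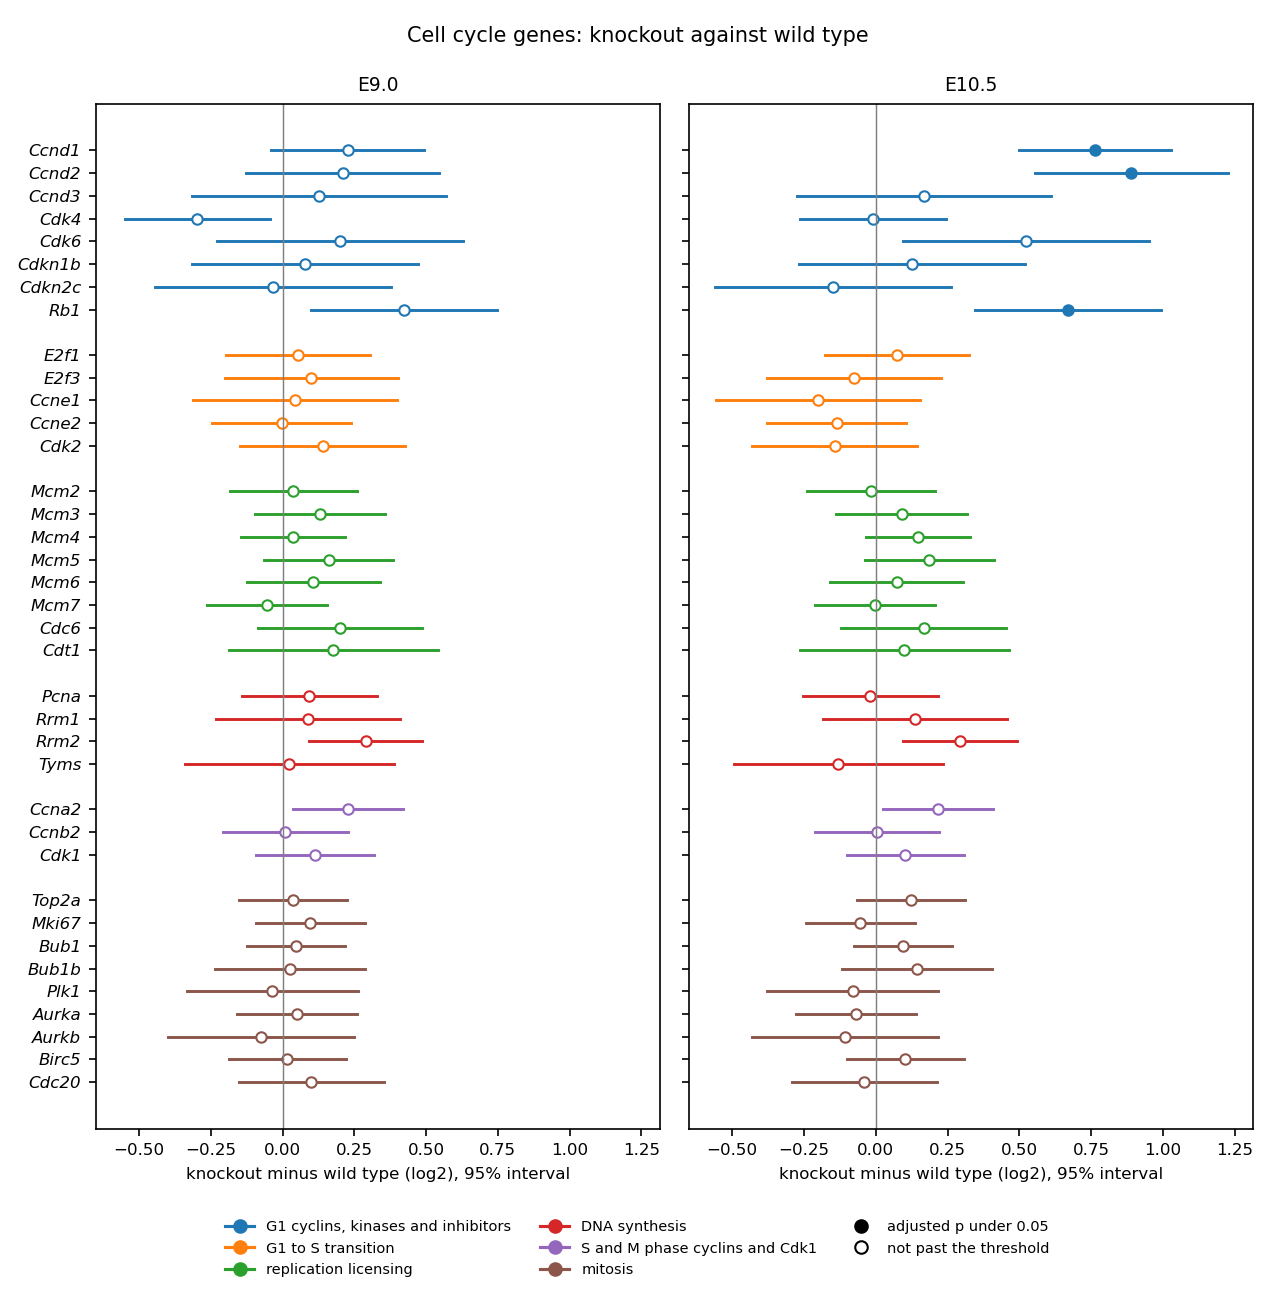
Fitted knockout minus wild type difference (log2, x axis) of each of the 37 measured members (y axis, grouped by role) at E9.0 and E10.5, with 95% intervals from limma and 3 arrays per group. Filled points passed the threshold, 0 members at E9.0 and Ccnd1, Ccnd2 and Rb1 at E10.5. The mitosis genes lie near 0 at both stages, whereas the intervals of Rrm2 and Ccna2 lie above 0 at both.

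At E10.5 the knockout had more cyclin D1 and cyclin D2 mRNA and more Rb1 mRNA than the wild type, while no replication or mitosis gene of the list passed the threshold. Ccnd1 was 1.70-fold higher, Ccnd2 1.85-fold higher and Rb1 1.59-fold higher. These 3 of 37 members (8.11%), all higher, stand beside 7.28% of all genes in this comparison, 4.12% higher and 3.16% lower, so the list as a whole was called about as often as other genes. The median difference was 0.09, against -0.013 over all genes, with 22 members positive and 15 negative. The groups did not overlap for 7 members, against 22.8% of all genes, and 6 members (16.2%) had an unadjusted p under 0.05, against 20.2%. All 3 calls fell among the 8 G1 genes.

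Cyclin D1 (Ccnd1), the cyclin that couples growth signals to G1 kinases, read 8.09, 7.89 and 7.74 in the wild type and 8.64, 8.63 and 8.74 in the knockout at E10.5. The knockout arrays were tightly grouped and all above the wild type arrays. The change was 0.76 (SE 0.12, 95% interval 0.50 to 1.03, adjusted p = 0.00283). Cyclin D2 (Ccnd2) read 8.13, 8.06 and 7.90 in the wild type against 9.30, 8.70 and 8.76, again with no overlap, and knockout replicate 1 was the highest. Its change was 0.89 (SE 0.16, 95% interval 0.55 to 1.23, adjusted p = 0.00466). Rb1, the target of the kinases that these cyclins activate, read 6.49, 6.76 and 6.49 in the wild type and 7.32, 7.02 and 7.41 in the knockout. The groups were again apart, by a smaller gap, and the change was 0.67 (SE 0.15, 95% interval 0.35 to 0.99, adjusted p = 0.0169). Rb1's call was lost when wild type E10.5 replicate 1 (0.63, adjusted p = 0.0703), wild type E10.5 replicate 3 (0.63, adjusted p = 0.0615) or knockout E10.5 replicate 1 (0.64, adjusted p = 0.0663) was left out. Ccnd1 and Ccnd2 passed in each of the 12 fits without 1 array, with changes of 0.68 to 0.86 and 0.70 to 1.00.

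The 3 increases were present in both sets of replicates. Within replicates 1 and 2 the E10.5 changes were 0.65 for Ccnd1 (limma adjusted p = 0.0184), 0.91 for Ccnd2 (adjusted p = 0.0285) and 0.55 for Rb1 (adjusted p = 0.0418). The replicate 3 arrays, 1 of each genotype and so without a test, differed by 1.00, 0.86 and 0.92. Cdk6, the other kinase partner of the D-type cyclins, was called or not depending on how the batch was treated and on the probe sets used. It read 7.21, 7.17 and 6.57 in the wild type and 7.73, 7.59 and 7.20 in the knockout, with replicate 3 the lowest array of either genotype and overlapping groups. Its difference of 0.52 (SE 0.20, adjusted p = 0.147) was 0.47 within replicates 1 and 2 (adjusted p = 0.0390) and 0.63 within replicate 3. With the mean over all its probe sets, and no batch term, Cdk6 passed at 0.46 (limma adjusted p = 0.0121). With replicate 3 as a batch block in the fit its change was the same and Cdk6 passed (adjusted p = 0.00515), as did Rrm2 (adjusted p = 0.0484), which gave 5 calls in place of 3.

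**Figure D2:**
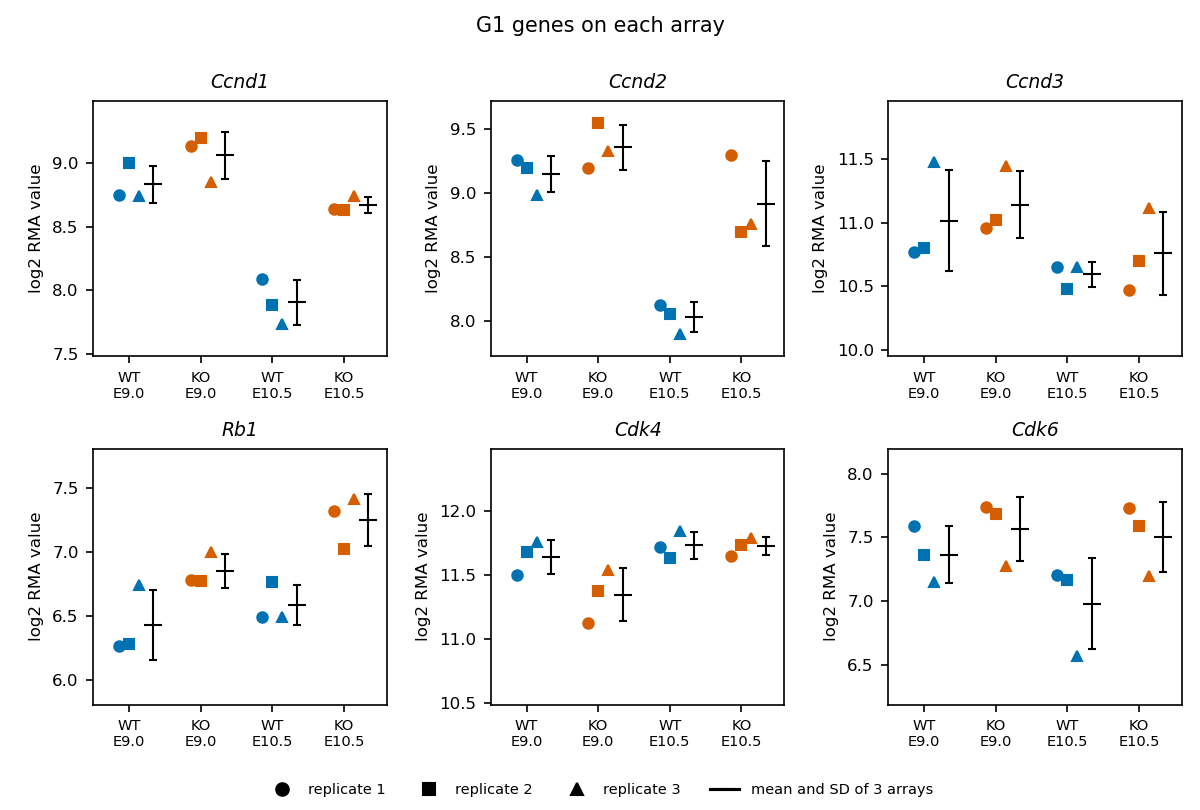
Log2 RMA value of each array (y axis) for the D-type cyclins, Rb1, Cdk4 and Cdk6 in the 4 groups (x axis; WT, wild type; KO, knockout), with the mean and SD of 3 arrays beside the points. For Ccnd1, Ccnd2 and Rb1 the 3 knockout arrays at E10.5 lie above the 3 wild type arrays, whereas the groups overlap for Ccnd3, Cdk4 and Cdk6.

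Other probe sets of the cyclins gave the same direction. The arrays carry 3 probe sets for Ccnd1, with E10.5 changes of 1.28, 0.76 and 0.68 in a fit over all 34945 probe sets with 1 symbol, and all 3 passed. Of 7 probe sets for Ccnd2 all were higher in the knockout, by 0.66 to 1.20, and 6 passed; the remaining one gave 0.93 (adjusted p = 0.0601). The 3 probe sets for Ccnd3, the third D-type cyclin, gave 0.13 to 0.28 and none passed. Rb1 has 1 further probe set, which lay near the floor of the arrays (mean 2.84) and differed by -0.04. Averaging both Rb1 probe sets gave 0.32 (adjusted p = 0.0962), so the call of Rb1 rests on 1 probe set.

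**Figure D3:**
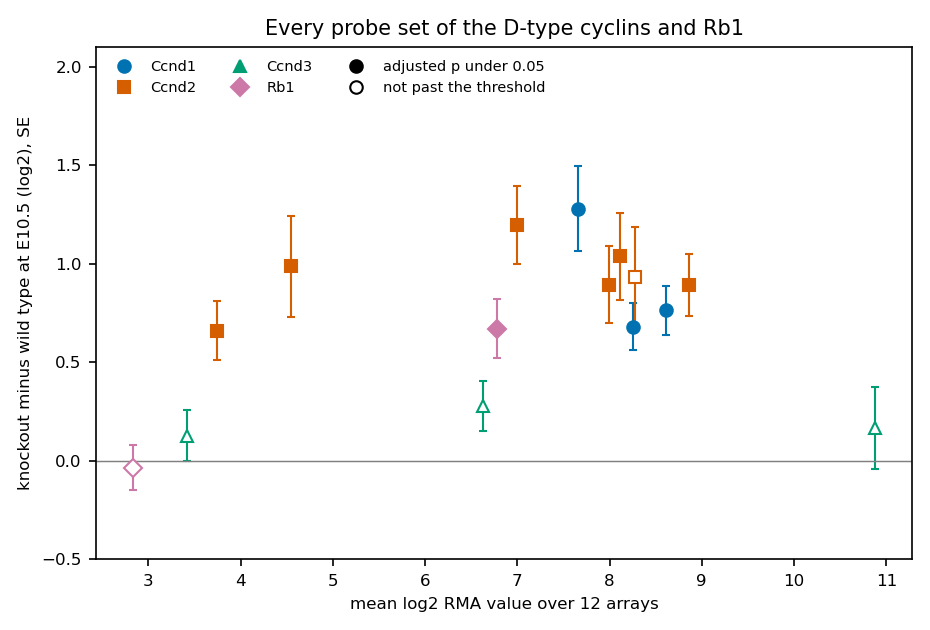
Knockout minus wild type difference at E10.5 (log2, y axis, with SE) of every probe set of Ccnd1, Ccnd2, Ccnd3 and Rb1 against its mean log2 value over the 12 arrays (x axis). All Ccnd1 and Ccnd2 probe sets lie above 0, the Ccnd3 probe sets lie between 0.13 and 0.28, and the dim Rb1 probe set lies at -0.04.

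The remaining G1 genes did not pass at E10.5. Ccnd3 differed by 0.17 (adjusted p = 0.741), Cdk4 by -0.01, the p27 inhibitor gene Cdkn1b by 0.13 and the p18 inhibitor gene Cdkn2c by -0.15. In the step from G1 to S phase, Ccne2, a cyclin that activates Cdk2, had the smallest p with -0.14 (adjusted p = 0.573), and E2f1, E2f3, Ccne1 and Cdk2 lay between -0.20 and 0.07. Among the licensing genes the differences ran from -0.02 to 0.19, with Mcm5 first (0.19, adjusted p = 0.355). Rrm2 was again first of the DNA synthesis genes, at 11.63, 11.58 and 11.34 in the wild type and 11.77, 11.82 and 11.84 in the knockout. On this probe set the groups did not overlap, and the difference of 0.29 (SE 0.09, adjusted p = 0.0752) was the size seen at E9.0. It was 0.19 within replicates 1 and 2 (limma adjusted p = 0.236) and 0.50 within replicate 3. The other probe sets of Rrm2, apart at E9.0, overlapped at E10.5. They read 10.34, 10.31 and 10.41 in the wild type against 10.32, 10.67 and 11.04, and 10.74, 10.70 and 10.86 against 10.73, 10.81 and 11.30. Rrm2 passed with further quantile normalization (0.34, adjusted p = 0.0354) and with an intensity trend in the prior (adjusted p = 0.0313). Ccna2, at 11.06, 11.03 and 10.95 against 11.20, 11.17 and 11.32, was higher on each knockout array, by 0.22 (SE 0.09, adjusted p = 0.183). Its second probe set again did not rise, at 11.15, 11.01 and 11.11 in the wild type against 11.03, 11.09 and 10.97. The 9 mitosis genes ran from -0.11 for Aurkb to 0.14 for the checkpoint kinase Bub1b, with Top2a, the topoisomerase that untangles chromosomes, first by p (0.12, adjusted p = 0.492). The 95% interval lay within 0.5 of 0 for 29 of 37 members (78.4%), against 65.3% of all genes, and for all 9 mitosis and all 8 licensing genes.

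The difference between the knockout effects at the 2 stages was tested directly. No member passed (limma, smallest adjusted p = 0.331), where 0.187% of all genes did (0.104% with a higher and 0.0824% with a lower effect at E10.5). An unadjusted p under 0.05 was found for 2 members, Ccnd1 and Ccnd2 (5.41%), against 8.3% of all genes. Their effects were larger at E10.5 by 0.54 (SE 0.17) and 0.68 (SE 0.22). At E9.0 Ccnd1 read 8.75, 9.0 and 8.74 in the wild type and 9.13, 9.19 and 8.85 in the knockout, a difference of 0.23 (adjusted p = 0.524) with overlapping groups. On its other probe sets every knockout array was higher at E9.0. They read 8.02, 8.20 and 7.90 against 8.45, 8.44 and 8.44, and 8.29, 8.33 and 8.32 against 8.65, 8.69 and 8.63. Of the further probe sets of all members 0 passed at E9.0. Ccnd2 read 9.26, 9.20 and 8.99 against 9.20, 9.55 and 9.33, a difference of 0.21 (adjusted p = 0.686). An effect of the knockout on either cyclin that grows with stage is therefore not shown by these arrays. For Rb1 the 2 effects, 0.42 and 0.67, differed by 0.25 (SE 0.21, adjusted p = 0.858).

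Markers of yolk sac cell types and of heart muscle and neural tissue moved in the E10.5 knockout comparison, where 7.28% of all genes passed (4.12% higher, 3.16% lower). Of 10 heart muscle markers 4 were higher in the knockout at E10.5, and their mean log2 level was 4.89 to 5.04 on the wild type arrays and 5.63 to 6.71 on the knockout arrays. Of 12 mesenchyme and smooth muscle markers 4 were higher (9.49 to 9.66 against 9.75 to 10.29), and so were 2 of 12 endothelial markers (7.41 to 7.73 against 7.76 to 8.26) and 2 of 10 neural markers (4.65 to 5.00 against 5.32 to 5.39). Of 10 markers of macrophages and blood progenitors 5 were higher and 1 lower, while 2 of 12 visceral endoderm markers and 2 of 11 red blood cell markers were lower. Among the defining genes, Myl7 of heart muscle read 4.93 to 5.24 in the wild type and 7.52 to 9.33 in the knockout, whereas the heart factor Nkx2-5 (4.92 to 5.05 over both groups) and the neural factor Pax6 (4.21 to 4.56) had the same low range in both. RMA values have no 0, so absence cannot be stated. The part of these tissues in the values of Ccnd1, Ccnd2 and Rb1 was not tested, and in pooled tissue fewer cells of a type and less RNA per cell cannot be told apart. The mean level over the 37 members was 9.88 to 9.99 on the wild type arrays and 10.05 to 10.06 on the knockout arrays.

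From E9.0 to E10.5 members moved in both directions: Ccnd1 and 4 subunits of the replication helicase fell in both genotypes, as did Plk1, Aurkb and Cdc20, while Cdk1 and Bub1 rose. Of the 37 members 4 rose and 11 fell in the wild type, and 4 rose and 11 fell in the knockout. That is 15 of 37 (40.5%) in each genotype, where 22.2% of all genes were called in the wild type (13.4% higher, 8.86% lower) and 23.6% in the knockout (14.4% higher, 9.17% lower). At an unadjusted p under 0.05 stood 18 members in the wild type and 25 in the knockout, against 33.3% and 34.8% of all genes. The median change was -0.14 in the wild type and -0.19 in the knockout, against 0.03 over all genes in both. The groups did not overlap for 24 members in the wild type and 23 in the knockout, against 40% and 34.6% of all genes. The stage changes of the 2 genotypes come from different arrays, but the variance used to test them comes from the same fit over all 12 arrays. The 2 lists of calls are therefore not independent. Between them 12 calls, 80% of each list, were shared with the same direction. Among all genes 2711 calls were shared, 67% of those in the wild type and 63.2% of those in the knockout. Each stage comparison shares its arrays with the knockout comparisons above, so the low E10.5 wild type values of Ccnd1 and Ccnd2 enter both.

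Median centring of the arrays would take 0.13 from every stage change in the knockout and 0.10 from those in the wild type. Relative to that shift the split in the knockout became 1 higher and 16 lower, and 2 higher and 13 lower after further quantile normalization, against 4 and 11 as deposited. Every called change of a member kept its sign under both scalings, and all 8 licensing genes stayed negative, but Cdk4, Cdk1 and Birc5 no longer passed in the knockout after centring (0.25, 0.30 and 0.15), nor did Ccne2 in the wild type (0.35, adjusted p = 0.0556). Centring also added calls, all lower, for Ccnd2 (-0.57), Ccne1 (-0.49), Mcm2 (-0.43), Ccna2 (-0.38) and Mki67 (-0.32) in the knockout and for Ccna2 (-0.34) in the wild type.

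**Figure D4:**
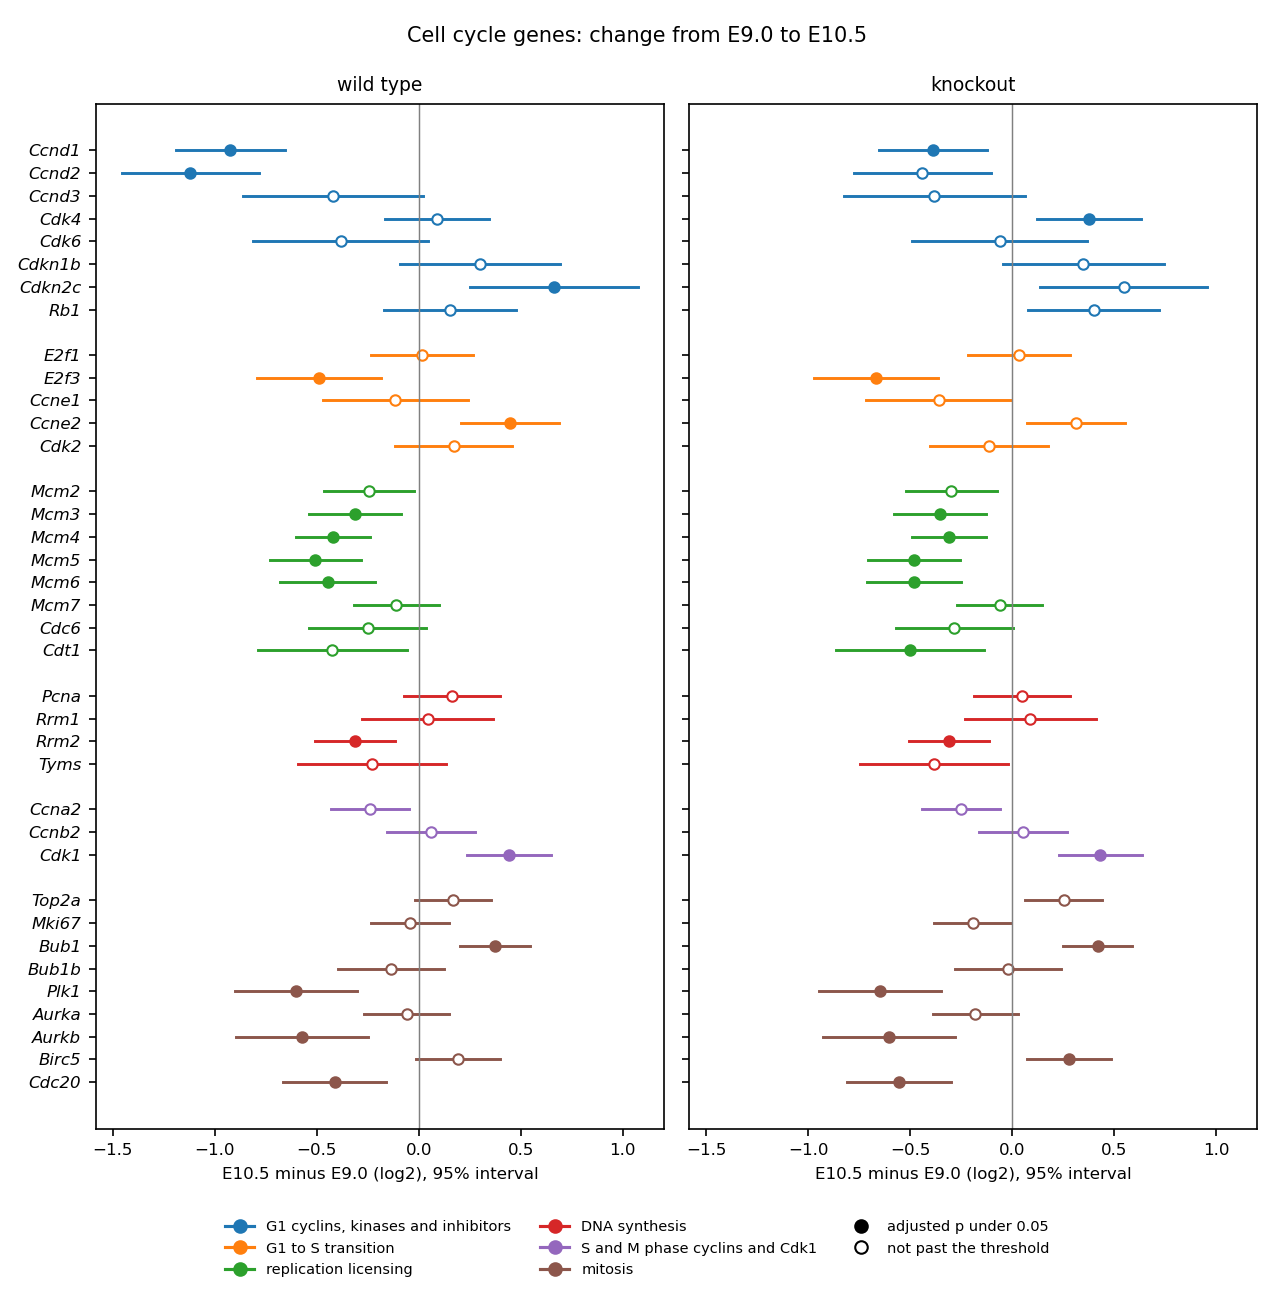
Fitted change from E9.0 to E10.5 (log2, x axis) of each of the 37 measured members (y axis, grouped by role) in the wild type and the knockout, with 95% intervals from limma and 3 arrays per group. Filled points passed the threshold, and all 8 licensing genes lie below 0 in both genotypes.

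Among the G1 genes Ccnd1 and Ccnd2 had the largest falls. In the wild type Ccnd1 went from 8.74 to 9.0 at E9.0 down to 7.74 to 8.09 at E10.5, a fall of 0.92 (SE 0.12, adjusted p = 0.000251), and Ccnd2 from 8.99 to 9.26 down to 7.90 to 8.13, a change of -1.12 (SE 0.16, adjusted p = 0.000344), which is 2.17-fold. The stages did not overlap for either cyclin, and both calls passed in each of the 12 fits without 1 array. In the knockout Ccnd1 changed by -0.39 (SE 0.12, adjusted p = 0.0373) and Ccnd2 by -0.44 (SE 0.16, adjusted p = 0.0579). The Ccnd1 call in the knockout was lost without knockout E9.0 replicate 1 (-0.35) or 2 (-0.32), knockout E10.5 replicate 1 (-0.37) or 2 (-0.37), or wild type E10.5 replicate 2 (-0.39). Ccnd2 passed there without knockout E10.5 replicate 1 (-0.63, adjusted p = 0.00620), and with the batch block (adjusted p = 0.0415) and the level filter (adjusted p = 0.0405) at an unchanged -0.44. Cdkn2c, an inhibitor of Cdk4 and Cdk6, rose in the wild type by 0.66 (SE 0.19, adjusted p = 0.0239) and differed by 0.55 in the knockout (adjusted p = 0.0544), where it passed with the batch block (adjusted p = 0.0271), with the level filter (adjusted p = 0.0391) and without wild type E9.0 replicate 3 (0.55) or knockout E10.5 replicate 1 (0.76). Its wild type call was lost without wild type E9.0 replicate 1 (0.54) or 2 (0.64), or wild type E10.5 replicate 2 (0.59) or 3 (0.66). Cdk4 rose in the knockout by 0.38 (SE 0.12, adjusted p = 0.0341), from 11.13, 11.38 and 11.54 to 11.65, 11.74 and 11.79, while the wild type difference was 0.09. That call was lost without knockout E9.0 replicate 1 (0.27) or 2 (0.39), or knockout E10.5 replicate 2 (0.37) or 3 (0.35).

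E2f3, an activating E2F factor, fell in both genotypes. It read 8.87, 8.89 and 8.53 at E9.0 and 8.37, 8.40 and 8.05 at E10.5 in the wild type, and 8.98, 8.95 and 8.66 against 8.30, 8.03 and 8.26 in the knockout. The stages did not overlap, and the changes were -0.49 (SE 0.14, adjusted p = 0.0235) and -0.67 (SE 0.14, adjusted p = 0.00432). The wild type call was lost without wild type E9.0 replicate 1 (-0.44) or 2 (-0.43), or wild type E10.5 replicate 3 (-0.38). Ccne2 rose in the wild type, from 9.31, 9.22 and 9.38 to 9.73, 9.81 and 9.71, by 0.45 (SE 0.11, adjusted p = 0.0121), and differed by 0.31 in the knockout (adjusted p = 0.0601), where it passed with the level filter (adjusted p = 0.0391), with the mean over probe sets (0.31) and without knockout E9.0 replicate 1 (0.42). Without wild type E9.0 replicate 2 its change was 0.41 (adjusted p = 0.0530). E2f1 and Cdk2 did not pass in either genotype, nor did Ccne1 (-0.12 and -0.36), which passed in the knockout with median centring (-0.49, adjusted p = 0.0346) and with the mean over probe sets (-0.46, adjusted p = 0.0337).

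The licensing genes of this list were the most uniform group. Origin subunits, counted below among the other replication genes, moved both ways in the wild type. Orc3 (0.38), Orc4 (0.32) and Orc5 (0.30) rose there, calls that median centring did not keep, and Orc2 (-0.51) fell. On the brightest probe set of each gene all 8 licensing genes were lower at E10.5 in both genotypes. The median changes were -0.37 in the wild type and -0.33 in the knockout. Past the threshold 4 fell in the wild type and 5 in the knockout. Mcm5, the helicase subunit whose promoter above holds overlapping E2F matches, read 11.80, 11.82 and 11.76 at E9.0 and 11.46, 11.30 and 11.10 at E10.5 in the wild type. In the knockout it read 11.98, 11.90 and 11.98 against 11.58, 11.49 and 11.35. Every E10.5 array was lower than every E9.0 array of its genotype, and the changes were -0.51 (SE 0.10, adjusted p = 0.00398) and -0.48 (SE 0.10, adjusted p = 0.00519). Mcm6 read 11.60, 11.62 and 11.55 against 11.26, 11.18 and 10.99 in the wild type and 11.76, 11.61 and 11.72 against 11.41, 11.09 and 11.15 in the knockout. It too was lower on each later array, by changes of -0.45 (SE 0.11, adjusted p = 0.00954) and -0.48 (SE 0.11, adjusted p = 0.00619). Mcm4 fell by 0.42 in the wild type (SE 0.08, adjusted p = 0.00350) and by 0.31 in the knockout (SE 0.08, adjusted p = 0.0177), and Mcm3 by 0.31 (SE 0.10, adjusted p = 0.0487) and 0.35 (SE 0.10, adjusted p = 0.0276). Cdt1, which loads the helicase, fell in the knockout by 0.50 (SE 0.17, adjusted p = 0.0482), with a difference of -0.42 in the wild type (adjusted p = 0.0944). The wild type difference passed with the batch block (adjusted p = 0.0131), with the mean over probe sets (-0.33, adjusted p = 0.0219) and without wild type E10.5 replicate 2 (-0.56). Mcm2 differed by -0.24 and -0.30, Cdc6 by -0.25 and -0.28 and Mcm7 by -0.11 and -0.06, none past the threshold. The direction of Mcm7 depended on the probe set, since its other probe sets were higher on average at E10.5 in the knockout. One went from 10.99, 11.12 and 11.11 to 11.17, 11.22 and 11.19, and another from 10.69, 10.58 and 10.72 to 10.87, 10.92 and 10.91. In the wild type all of these overlapped between stages. Mcm2 in the knockout passed with the batch block (adjusted p = 0.0252), with the level filter (adjusted p = 0.0329), with the intensity trend (adjusted p = 0.0366), with the mean over probe sets (-0.25, adjusted p = 0.0336), with median centring (-0.43, adjusted p = 0.0179) and without knockout E9.0 replicate 3 (-0.38).

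Of these calls, Mcm5 and Mcm6 in both genotypes and Mcm4 in the wild type passed in each of the 12 fits without 1 array. Mcm4 in the knockout was lost without knockout E9.0 replicate 1 (-0.30) or 2 (-0.31), or knockout E10.5 replicate 1 (-0.28), with adjusted p values up to 0.0601. Mcm3 in the knockout was lost without any of the 3 knockout E9.0 arrays (-0.32, -0.37 and -0.37) or knockout E10.5 replicate 1 (-0.37) or 2 (-0.29). Mcm3 in the wild type passed in only 3 of the 12 fits, those without wild type E9.0 replicate 3 or knockout E10.5 replicate 2 or 3, and reached an adjusted p of 0.173 without wild type E9.0 replicate 2 (-0.26). Cdt1 in the knockout also passed in only 3, those without wild type E10.5 replicate 2 or 3 or knockout E10.5 replicate 1, and its adjusted p reached 0.159 without knockout E9.0 replicate 1 (-0.42). Averaged over all its probe sets, 1 of which is dim (mean 4.85), Mcm5 changed by -0.33 (adjusted p = 0.0747) and -0.26 (adjusted p = 0.165).

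Among the DNA synthesis genes Rrm2 fell in both genotypes, from 11.81, 11.85 and 11.83 to 11.63, 11.58 and 11.34 in the wild type and from 12.13, 12.12 and 12.11 to 11.77, 11.82 and 11.84 in the knockout. No array of one stage reached the other stage, and the changes were -0.31 (SE 0.09, adjusted p = 0.0258) and -0.31 (SE 0.09, adjusted p = 0.0264). The wild type call was lost without any of the 3 wild type E9.0 arrays (-0.32, -0.30 and -0.31) or wild type E10.5 replicate 3 (-0.23). The knockout call was lost without any of the 3 knockout E9.0 arrays (-0.31, -0.31 and -0.32) or knockout E10.5 replicate 1 (-0.29) or 2 (-0.32). With all its probe sets averaged Rrm2 changed by -0.17 and -0.26 and passed in neither genotype. Pcna, the sliding clamp of replication, Rrm1 and the thymidylate synthase gene Tyms did not pass, with differences of -0.23 to 0.16 in the wild type and -0.38 to 0.09 in the knockout. Tyms passed in the knockout with further quantile normalization (-0.54, adjusted p = 0.0349). It was the 1 member whose mean level lay below the median of all genes (6.52).

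**Figure D5:**
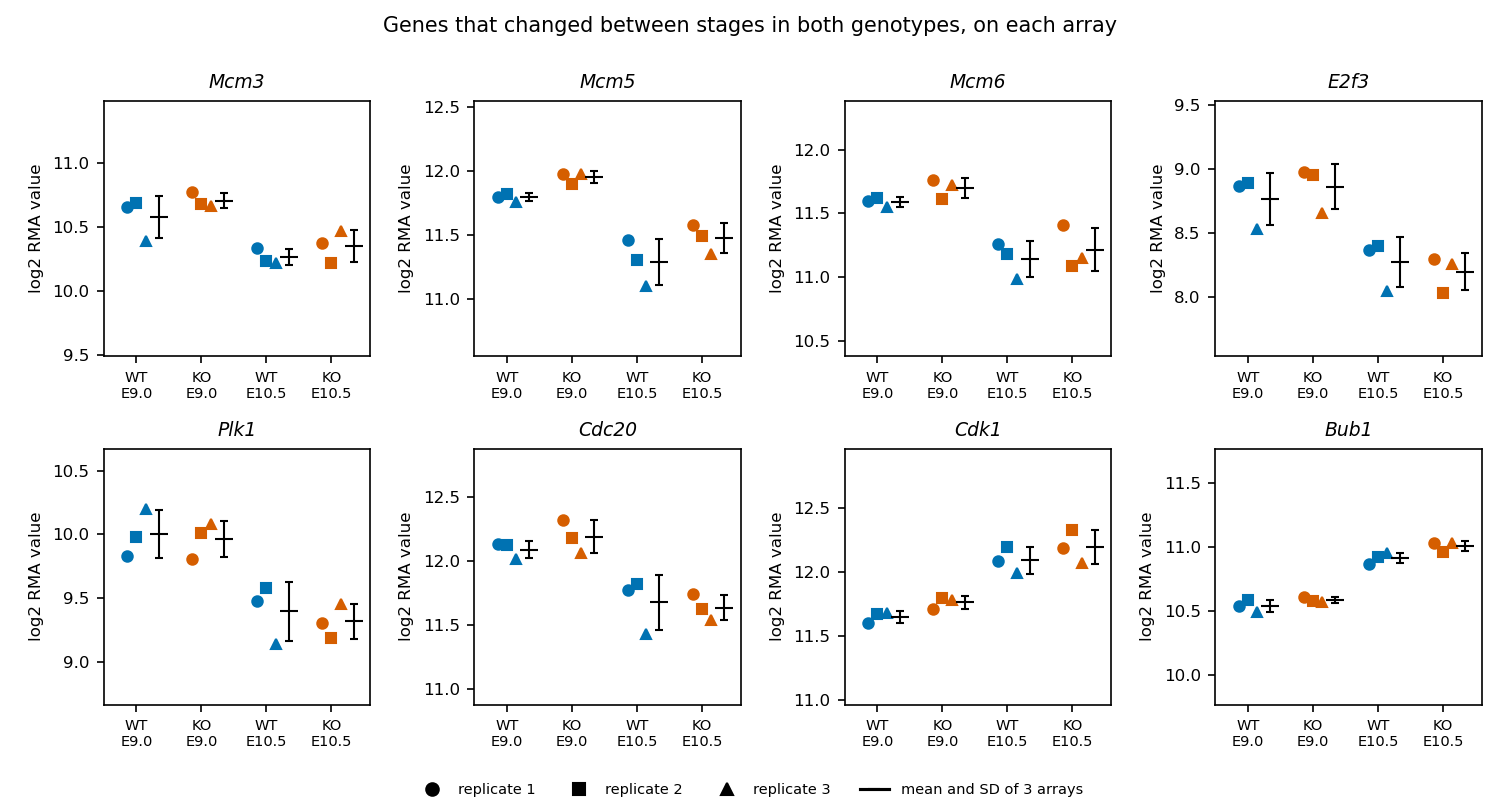
Log2 RMA value of each array (y axis) for 8 members called in both genotypes, in the 4 groups (x axis; WT, wild type; KO, knockout), with the mean and SD of 3 arrays beside the points. Mcm3, Mcm5, Mcm6, E2f3, Plk1 and Cdc20 lie lower at E10.5 than at E9.0 in each genotype, and Cdk1 and Bub1 lie higher.

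The genes of G2 and mitosis split. Cdk1, the kinase that starts mitosis, rose in both genotypes, from 11.60, 11.67 and 11.68 to 12.09, 12.20 and 11.99 in the wild type and from 11.71, 11.80 and 11.78 to 12.19, 12.33 and 12.07 in the knockout. The stages did not overlap, and the changes were 0.44 (SE 0.09, adjusted p = 0.00501) and 0.43 (SE 0.09, adjusted p = 0.00552). Bub1, a kinase of the spindle checkpoint, rose by 0.37 (SE 0.08, adjusted p = 0.00470) and 0.42 (SE 0.08, adjusted p = 0.00226), with E9.0 arrays at 10.49 to 10.61 and E10.5 arrays at 10.87 to 11.03. Both genes passed in each of the 12 fits without 1 array. The second probe set of Bub1, of lower level (mean 6.64), changed by -0.07 and 0.04, and with both averaged Bub1 did not pass (0.15 and 0.23). Birc5, a subunit of the chromosomal passenger complex, rose in the knockout by 0.28 (SE 0.09, adjusted p = 0.0488). It passed in only 2 of the 12 fits, those without knockout E9.0 replicate 2 or knockout E10.5 replicate 1, and gave 0.21 without knockout E10.5 replicate 2 (adjusted p = 0.171).

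Plk1, Aurkb and Cdc20 fell in both genotypes. The mitotic kinase Plk1 read 9.83, 9.98 and 10.20 at E9.0 and 9.48, 9.58 and 9.14 at E10.5 in the wild type, and 9.81, 10.01 and 10.08 against 9.31, 9.19 and 9.46 in the knockout. Its stages did not overlap, and it fell by 0.60 (SE 0.14, adjusted p = 0.00732) and 0.65 (SE 0.14, adjusted p = 0.00475) and passed in each of the 12 fits. Within replicates 1 and 2 its wild type change was -0.38 (adjusted p = 0.0487), and within replicate 3 it was -1.06. Aurkb, the kinase of the passenger complex, fell by 0.57 (SE 0.15, adjusted p = 0.0150) and 0.60 (SE 0.15, adjusted p = 0.0111). Cdc20, the activator of the anaphase promoting complex, fell by 0.41 (SE 0.12, adjusted p = 0.0228) and 0.55 (SE 0.12, adjusted p = 0.00458). In the knockout both passed in each of the 12 fits. The wild type call of Aurkb was lost without wild type E9.0 replicate 2 (-0.55) or 3 (-0.47), or wild type E10.5 replicate 3 (-0.53). That of Cdc20 was lost without wild type E9.0 replicate 1 (-0.39) or 2 (-0.40), or wild type E10.5 replicate 3 (-0.29, adjusted p = 0.0998). Mki67, Top2a, Bub1b, Aurka, Ccnb2 and Ccna2 did not pass in either genotype. Some of them passed under alternatives. Ccna2 (-0.24 and -0.25) passed in both genotypes with median centring, quantile normalization, the level filter and the intensity trend, with adjusted p values of 0.0104 to 0.0411, and in the knockout also with the batch block (adjusted p = 0.0424), within replicates 1 and 2 (adjusted p = 0.0486) and without knockout E10.5 replicate 3 (-0.30). The second probe set of Ccna2 overlapped between stages in both genotypes. In the knockout it read 11.02, 11.14 and 10.94 at E9.0 and 11.03, 11.09 and 10.97 at E10.5. Top2a passed in the knockout with the batch block (adjusted p = 0.0424), the level filter (adjusted p = 0.0293), the intensity trend (adjusted p = 0.0197) and without knockout E9.0 replicate 2 (0.31), and Mki67 with median centring (-0.32, adjusted p = 0.0424). Mki67 differed by -0.04 and -0.19 and Top2a by 0.17 and 0.25, neither past the threshold. Another Top2a probe set, of lower level, went the other way in both genotypes without overlap of the stages. It read 8.29, 7.85 and 7.78 at E9.0 and 7.74, 7.38 and 7.15 at E10.5 in the wild type. In the knockout it read 8.37, 8.20 and 8.51 against 7.87, 7.84 and 6.93. CHR matches lay in the printed promoters of Plk1 and Cdc20, which fell, and of Cdk1, which rose.

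Of the members that were called, other probe sets of the same genes mostly gave the same sign. In the wild type 11 called genes had 24 further probe sets, of which 23 had the same sign and 13 passed. In the knockout 12 called genes had 22, of which all 22 had the same sign and 10 passed. No further probe set passed with the opposite sign.

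Wider lists of the same pathways gave the background for these results, and some share members with each other. Over all genes 7.28% passed in the knockout comparison at E10.5 (4.12% higher, 3.16% lower) and 1.18% at E9.0. Among 22 other G1 regulators 5 rose in the knockout at E10.5 and 0 fell: the cyclin G genes Ccng1 (0.99) and Ccng2 (1.05), the p21 inhibitor gene Cdkn1a (1.30), the p57 inhibitor gene Cdkn1c (0.85) and Mycn (0.64). At E9.0 only Ccng1 rose among them (0.68, adjusted p = 0.00984). Among 11 measured p53 target genes 7 rose at E10.5, with Ccng1, Eda2r (1.59), Plk2 (1.19), Cdkn1a and Btg2 (0.72) first by p, and 2 rose at E9.0, Ccng1 and Trp53inp1 (0.53). Among 39 other replication genes 0 passed at E10.5 (limma; 5 at an unadjusted p under 0.05) and 1, Mcm8, fell at E9.0 (-0.44, adjusted p = 0.0339), a call that neither other scaling kept. Among 36 other mitosis genes 2 rose at E10.5 (5.56%, against 4.12% of all genes higher). They were the inhibitory kinase Wee1 (0.46) and the kinetochore gene Ndc80 (0.43). At E9.0 0 of the 36 passed (limma, with 2 at an unadjusted p under 0.05). With median centring the E10.5 counts were 5 higher and 1 lower in the G1 list and 1 higher in the mitosis list. The median differences at E10.5 were -0.07 for the G1 list, -0.04 for the replication list, 0.05 for the mitosis list and 0.72 for the p53 list.

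Between stages the wider lists moved both ways. Over all genes 22.2% were called in the wild type (13.4% higher, 8.86% lower) and 23.6% in the knockout (14.4% higher, 9.17% lower). Of the 39 other replication genes 8 rose and 5 fell in the wild type and 8 rose and 6 fell in the knockout. Dut (-0.58) and Pole (-0.47), which keep uracil out of DNA and copy the leading strand, fell in the wild type, while Rpa2 (0.42), Pola1 (0.37) and the origin subunit Orc4 (0.32) rose. With median centring these counts became 0 higher and 6 lower in the wild type and 1 higher and 11 lower in the knockout, so the rises depend on the scaling. Pole (-0.51), Orc4 (0.43), Mcm8 (0.42), Rpa2 (0.43) and Pold2 (-0.61) came first in the knockout. Of the 36 other mitosis genes 8 rose and 5 fell in the wild type, led by the spindle gene Nusap1 (0.72), the securin gene Pttg1 (0.75), Nuf2 (0.54), Ncapd2 (-0.56) and Wee1 (-0.54), and 13 rose and 7 fell in the knockout, led by Nusap1 (0.78), Ndc80 (0.59), Kif20a (0.51), Espl1 (-0.73) and Pttg1 (0.60). With median centring the mitosis list had 4 higher and 6 lower in the wild type and 5 higher and 10 lower in the knockout. Of the 22 other G1 regulators 4 rose and 6 fell in the wild type, led by Rbl2 (0.78), Cdc25a (-1.17), Mycn (-0.85), Cdkn2a (1.32) and Ccng1 (0.56). In the knockout 4 rose and 4 fell, led by Ccng1 (0.88), Myc (-1.25), Rbl2 (0.78), E2f7 (-0.74) and Cdc25a (-1.02), and median centring made this 4 higher and 8 lower. The p53 targets had 2 rises in the wild type, Trp53inp1 (1.19) and Ccng1, and 5 in the knockout, Trp53inp1 (0.97), Ccng1, Eda2r (1.22), Plk2 (0.73) and Bbc3 (0.41). Between the same stages 8 of 10 macrophage and blood progenitor markers rose in each genotype (7 in the wild type with either other scaling), while 1 of 12 endothelial markers rose and 5 fell in the wild type and 3 rose and 0 fell in the knockout. In the knockout 7 of 10 heart muscle markers rose, 6 of 12 mesenchyme markers rose and 1 fell, and 1 of 11 red blood cell markers rose and 4 fell, against 0 and 2, 3 and 1, and 1 and 1 in the wild type. The part of this change in cell types in the stage values of the members was not tested.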

How the data were processed

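The authors deposited log2 signal values, 1 per probe set and array. The submitters' processing notes name RMA, and its version is not given in the sources used here. RMA brings all arrays to a common distribution and compresses changes of dim probe sets. Of 45101 probe sets, 64 controls were left out, 34945 carried 1 gene symbol and were used, and 932 carried several. The brightest probe set per gene by mean gave 18193 genes, 18032 of them matched to the reference gene table, with 0 renamed. Promoter windows came from the RefSeq table of GRCm38.p6.

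A linear model with the 4 groups as terms used limma (version 3.58.1, under R 4.3.3) and all 12 arrays, with empirical Bayes moderation (8 residual and 4.56 prior degrees of freedom), and 5 comparisons were tested. Tests were two-sided, and adjusted p values are Benjamini-Hochberg over all genes of a comparison, with a threshold of 0.05. The fit was tested on simulated data. Each list is described by counts and medians beside all genes.

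The members and the 11 further lists (183 measured genes) were chosen with earlier results of these data known. Genes named with full statistics are members called in a comparison and the smallest p of each role in each knockout comparison; of further lists, called genes are named, at most 5 each by p. The members Cdk4 at E9.0 and Cdk6 at E10.5, and members given by value alone, were named after their values were seen.

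Replicate 3 of each stage was taken as a batch from the spiked controls, since the labels name none. Same-numbered arrays of the groups compared correlated by -0.03 to 0.40, not all above 0.1, so the numbers were not taken as pairs. Alternatives were the mean over probe sets, a level filter, 2 further scalings, the replicate and batch blocks, replicates 1 and 2 only, separate fits, an intensity trend and leaving out each array.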

Additional observations from a re-analysis of the deposited data

How the results depend on the processing

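In each of the 9 alternatives and 12 fits without 1 array, no member passed in the knockout comparison at E9.0 or in the difference between the knockout effects (the latter could not be fitted with the groups of 1 comparison only). At E10.5 the number of members called with the knockout was 3, ranged from 2 to 3 over the fits without 1 array and was 5 with replicate 3 as a batch block. Ccnd1 and Ccnd2 passed in all of these 21 fits. For the stage change in the wild type the count was 15 and ranged from 8 to 15; it was 8 without wild type E9.0 replicate 2 and 9 without wild type E10.5 replicate 3. In the knockout it was 15 and ranged from 9 to 15, with 9 without knockout E9.0 replicate 1 (10 without replicate 2 of either knockout stage); it was 9 when only the 2 groups of the comparison were fitted and 23 with the batch block. Of the 15 calls in each genotype 5 passed in every fit run, and 8 passed in every fit without 1 array. No change of a called member, or of the member with the smallest p of its role in a knockout comparison, turned its sign; small differences given by value alone did in places, such as Mcm7 between stages in the knockout (0.03 within replicates 1 and 2) and Cdk4 at E10.5 (0.02 there). With the replicate block the counts were 0, 4, 0, 18 and 20 for the 5 comparisons in the order used above, it kept every call made without it, and it added Cdk6 at E10.5 (adjusted p = 0.00613), Ccnd3, Cdk6 and Cdt1 between stages in the wild type and Ccnd2, Ccnd3, Cdkn2c, Ccne2 and Mcm2 in the knockout. Same-numbered arrays did not all correlate best with each other, so this block is a technical check only.

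Counts over all genes also moved. The 215 calls of the E9.0 knockout comparison became 476 with the batch block, 69 within replicates 1 and 2, 61 with its own groups only and 33 to 290 without 1 array. The 1325 calls at E10.5 became 2081 with the batch block, 773 with its own groups only, 873 with only the genes above the median level and 693 to 1630 without 1 array. The 34 calls of the difference between effects became 53 with median centring, 61 with the replicate block, 91 with the batch block, 0 with only the genes above the median level and 12 to 90 without 1 array. At E9.0 the count fell most without knockout replicate 1 (33) or 3 (49) or wild type replicate 2 (44) or 1 (54), all of that stage, and was 136 without wild type E9.0 replicate 3 or wild type E10.5 replicate 1. At E10.5 it fell most without wild type replicate 2 (693), 1 (768) or 3 (860) or knockout replicate 1 (707). The difference between effects had 12 calls without wild type E10.5 replicate 2 and 90 without knockout E10.5 replicate 2. The causes were not tested.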
